A study of Rattus norvegicus with 2 samples.

Results

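The genes that drive and mark cell division were read in lens epithelial cells (LECs) of Shumiya cataract rats (SCRs), a strain with hereditary cataract that depends on the alleles of *Lss*, the gene of lanosterol synthase. The list holds 46 genes of DNA replication, of the G1/S cyclins and kinases, of mitosis, of the inhibitors of cyclin-dependent kinases (CDKs) and of the E2F and Rb switch. A gene was counted as measured where a probe set of the array names that gene alone. This held for 42 of the 46, out of 18166 genes measured in all. *Rrm1*, *Ccnd3*, *Birc5* and *Cenpe* were not among them, so their signals were not analysed here. Total RNA came from the lens capsules and attached LECs of 5-week-old rats, from 2 eyes for each of the 2 samples. The control group (Cat-) had the genotype Lss s/Lss s, without the mutant allele, and keeps clear lenses. The cataractous group (Cat+) had the genotype Lss s/Lss l and develops opacity. Both are SCRs and share the polymorphic s allele, and *Fdft1* alleles are named as a further part of the strain's cataract. The rats were genotyped by PCR on DNA from the tail.

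Cells that divide copy their DNA once and then separate the copies. Replication origins are licensed in G1 by Cdc6 and Cdt1, which load the Mcm helicase, and are fired once CDKs are active. Cyclin D kinases release E2F factors from Rb, and E2F switches on the replication genes, whereas the mitotic genes are switched on later through the MuvB, B-Myb and FoxM1 complexes. In the lens, division is largely confined to the epithelium, most of all to the germinative zone before the equator. Cells that move past the equator leave the cycle, with the CDK inhibitors p27 and p57 involved in mice, and become fiber cells.

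Each sample was measured on 1 array, so no value has an error between animals, no test was run, and the statements below compare 2 arrays. The signal is the log2 value that the authors deposited, with an array median of 5.67 in Cat- and 5.69 in Cat+. The difference is Cat+ minus Cat- on the log2 scale, and the fold is Cat+ over Cat-. As a yardstick within the array, different probe sets of the same gene, available for 291 genes, gave log2 differences with an SD of 0.17, a factor of 1.13, which covers probe sets and not animals. The label of the tissue was checked on marker genes. *Foxe3* and *Pax6*, transcription factors of the lens epithelium, read 9.53 and 9.87 in Cat- and 9.72 and 10.03 in Cat+ on the log2 scale. Of the 11 measured lens epithelium markers, 7 were higher and 4 lower in Cat+. The brightest measured retina marker, *Gnat1*, read 9.35 in Cat- and 9.95 in Cat+. The brightest iris and ciliary body marker, *Tyrp1*, read 9.80 and 9.99. Such levels alone therefore do not show how pure the LECs were. Lens fiber markers were bright too, with *Mip*, the fiber water channel, at 11.57 in Cat- and 9.26 in Cat+, and which cells that signal came from was not measured. In bulk samples fewer cells of a type and less RNA per cell cannot be told apart.

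Cell division genes were for the most part slightly higher in the Cat+ sample. Of the 42 measured genes, 30 were higher and 12 lower in Cat+, against 48.8% of all genes higher. The median difference of the 42 was 0.08, a fold of 1.06, while over all 18166 genes it was 0.00. A list of 8 housekeeping genes had a median close to that of the 42, at 0.07, with 6 higher and single genes from -0.50 to 0.48. Of 17 mitotic genes, 14 were higher, with a median of 0.16. Of 12 replication genes, 8 were higher, with a median of 0.08, and of 7 G1/S cyclins and kinases 5 were higher, with a median of 0.02. The 4 CDK inhibitors had a median of -0.03, and *E2f1* and *Rb1*, both higher, a median of 0.07. These are small steps. The study's size rule of 2-fold was passed by 0 of 42 genes, against 0.314% of all genes, and 1.5-fold was also passed by 0, against 1.19%. Past a log2 difference of 0.32, 4 genes were higher, *Top2a*, *Rrm2*, *Mki67* and *Plk1*, and 1 was lower, *Cdc6*. Of all genes, 3.36% were higher and 5.39% lower by more than that. Beyond the SD of 0.17 between probe sets, 14 of 42 genes lay on the higher side and 2 on the lower, against 14.6% and 17% of all genes. Whether the mitotic genes differ from the replication genes could not be tested with 1 array per condition.

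**Figure D1:**
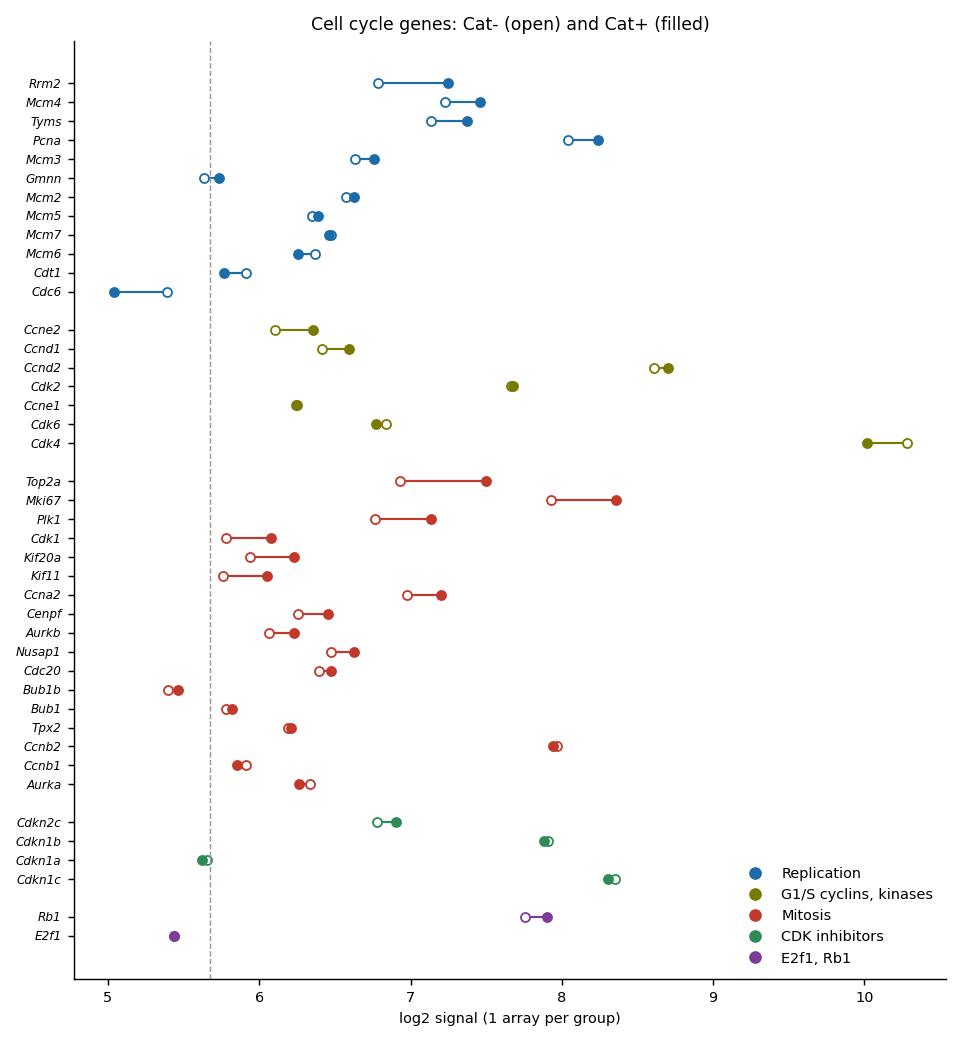
Log2 signal of each measured cell division gene in Cat- (open circle) and Cat+ (filled circle), 1 array each, grouped by role and ordered by difference. The dashed line is the median of the Cat- array at 5.67; *Top2a*, *Rrm2* and *Mki67* show the longest steps toward Cat+, and *Cdc6* and *Cdk4* the longest toward Cat-.

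**Figure D2:**
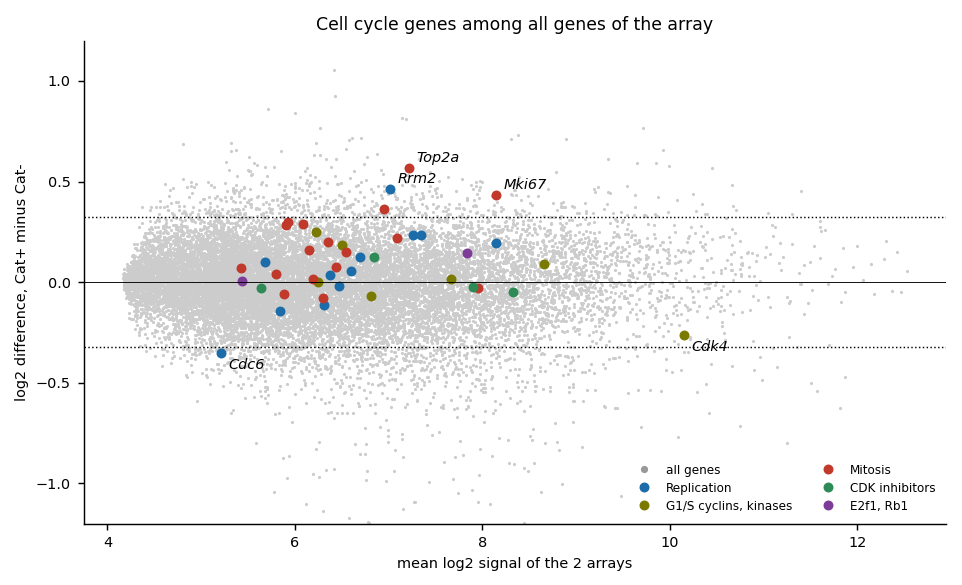
Log2 difference against the mean log2 signal of the 2 arrays for all 18166 genes (grey) and the 42 cell division genes (coloured by role), with dotted lines at 0.32 and -0.32; 38 genes beyond 1.2 in size are outside the axis. Most coloured points lie above 0 and between the dotted lines, with 4 above and 1 below them.

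The highest differences among the replication genes were those of *Rrm2*, *Mcm4* and *Tyms*. *Rrm2*, the regulatory subunit of ribonucleotide reductase that is made in S phase, read 6.79 in Cat- and 7.25 in Cat+ on the log2 scale, a fold of 1.38, and ranked 139 of 18166 genes from the highest difference. Its dimmer probe set had signals of 5.26 and 5.35, a fold of 1.07, and a probe set shared with the near copy *Rrm2l1* had 5.21 and 5.40, a fold of 1.14. All 3 were higher in Cat+, by unequal amounts, and how far the copies read each other was not measured. *Tyms*, thymidylate synthase, had log2 signals of 7.14 and 7.37, a fold of 1.18. *Pcna*, the sliding clamp of DNA polymerases, had signals of 8.04 and 8.24, a fold of 1.14.

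The Mcm helicase subunits, which act as a single ring of Mcm2 to Mcm7, spread to both sides of 0. *Mcm4* read 7.23 in Cat- and 7.46 in Cat+ on the log2 scale, a fold of 1.18, and its dimmer probe set had 5.74 and 6.06, a log2 difference of 0.32. *Mcm3* had signals of 6.63 and 6.76, a fold of 1.09, by its brighter probe set, and 6.39 and 6.26, a fold of 0.915, by the other, so its direction depends on the probe set. *Mcm2* was at a fold of 1.04 and *Mcm5* at 1.02. On the other side, *Mcm7* was at 0.987 and *Mcm6*, with signals of 6.37 and 6.26, at 0.924. Apart from *Mcm4*, the subunits differed by less than the SD between probe sets of a gene.

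The licensing factors *Cdc6* and *Cdt1* had the lowest folds among the replication genes of the list. *Cdc6*, which recruits the helicase to origins, read 5.39 in Cat- and 5.04 in Cat+ on the log2 scale, a fold of 0.784. Both signals lay under the median of their array, and the table has no detection calls. *Cdt1*, its partner in loading, had signals of 5.91 and 5.77, a fold of 0.906. *Gmnn*, geminin, which blocks Cdt1 after S phase has begun, had signals of 5.63 and 5.73, a fold of 1.07. *Cdc6* and *Cdt1* were thus lower and *Gmnn* higher, with *Cdt1* and *Gmnn* within the SD between probe sets. In Cat- *Gmnn* also read below the array median.

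Among the G1/S genes, the cyclins were at or above even and the kinases at or below it, apart from *Cdk2*. *Ccne2*, cyclin E2, had log2 signals of 6.10 and 6.35, a fold of 1.19, while its relative *Ccne1* had 6.24 and 6.25, a difference of 0.00. *Ccnd1*, cyclin D1, had 6.41 and 6.60, a fold of 1.13, and *Ccnd2*, cyclin D2, had 8.61 and 8.70, a fold of 1.07. *Cdk4*, the kinase partner of D cyclins and a brightly read gene at percentile 99.0 of Cat- signal, had 10.28 in Cat- and 10.02 in Cat+, a fold of 0.833. *Cdk6*, its close relative, was at 0.953 and *Cdk2*, the partner of cyclins E and A, at 1.01. Only *Ccne2*, *Ccnd1* and *Cdk4* of these 7 genes differed by more than the SD between probe sets.

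The gene with the largest difference of the list was a mitotic one. *Top2a*, the topoisomerase that untangles sister chromatids and marks S to M phase cells, read 6.93 in Cat- and 7.50 in Cat+ on the log2 scale, a fold of 1.48, and ranked 44 of 18166 genes from the top. *Mki67*, which encodes the proliferation antigen Ki-67 of mitotic chromosomes, had signals of 7.93 and 8.36, a fold of 1.35, and ranked 190. *Plk1*, a kinase of mitotic entry and spindle assembly, had 6.77 and 7.13, a fold of 1.29. These 3 mitotic genes lay past a log2 difference of 0.32. The next 3 fell just short of it. *Cdk1*, the kinase that starts mitosis, had signals of 5.78 and 6.08, a fold of 1.23. *Kif20a*, a kinesin of cytokinesis, had 5.94 and 6.23, a fold of 1.22, and *Kif11*, the kinesin that pushes spindle poles apart, had 5.76 and 6.05, again a fold of 1.22.

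Cyclins and spindle checkpoint genes were closer to even. *Ccna2*, cyclin A2, which acts in S and G2, read 6.98 in Cat- and 7.20 in Cat+ on the log2 scale, a fold of 1.17. The mitotic cyclins read slightly lower: *Ccnb1* had 5.91 and 5.86, a fold of 0.961, and *Ccnb2* had 7.97 and 7.94, a fold of 0.979, with 6.62 and 6.36, a fold of 0.836, by its dimmer probe set. *Cenpf*, a kinetochore protein of G2 and M phase, was at 1.15, and *Aurkb*, the kinase that corrects chromosome attachment, at 1.12. *Nusap1*, which stabilizes spindle microtubules, was at 1.11. *Cdc20*, the activator of the anaphase-promoting complex (APC/C), the checkpoint kinases *Bub1b* and *Bub1* and the spindle assembly factor *Tpx2* ran from 1.05 down to 1.01. The spindle pole kinase *Aurka*, with signals of 6.34 and 6.26, was the lowest mitotic gene at 0.948. In total 8 of 17 mitotic genes were higher by more than the SD between probe sets and 0 were lower by that much, against 14.6% and 17% of all genes.

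The brakes on the cycle hardly differed between the arrays. *Cdkn1b*, p27, read 7.91 in Cat- and 7.88 in Cat+ on the log2 scale, a fold of 0.982. *Cdkn1c*, p57, had 8.35 and 8.30, a fold of 0.967. For p21, *Cdkn1a*, a target of p53, the signals were 5.65 and 5.63, a fold of 0.980, and lay close to the array median. *Cdkn2c*, p18, which binds Cdk4 and Cdk6, had 6.78 and 6.90, a fold of 1.09. All 4 lay within the SD between probe sets. *Rb1*, the pocket protein that holds E2F, had 7.76 and 7.90, a fold of 1.11, and *E2f1* had 5.43 and 5.44, a difference of 0.00. The CDK inhibitors p27 and p57, involved when cells leave the cycle to become fiber cells, were thus near even. Each of the 11 measured lens fiber markers was lower in Cat+, with a median difference of -1.86. Several of these markers, such as *Mip*, were reported as lower by the study from these same arrays. Their direction was therefore partly known when they were listed.

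The start regions of these genes were read for the letters that E2F, NF-Y and the mitotic complexes are known to bind, since replication and mitotic genes carry different ones. In RefSeq (GRCr8), a 300-base region, from 250 bases before to 50 after the start site, was found for 34 of the 46 genes by gene ID, each with 1 start site. Of these 34 genes, 30 were measured. The counts of letters by role include the unmeasured *Rrm1*, *Birc5* and *Cenpe*, while comparisons with the signals leave them out. The letters searched on both strands were TTTCCCGC, TTTCGCGC, TTTGCCGC and TTTGGCGC for E2F, TTTGAA and TTCGAA for the cell cycle genes homology region (CHR) of mitotic genes, and CCAAT for NF-Y. Matches of different motifs overlapped in 2 cases, in *Mcm7* and *Mki67*. The 4 mitotic genes with the largest differences among those with such a region are shown first, in capitals wherever a match lies on either strand, so that TTCAAA is TTTGAA, and ATTGG is CCAAT, on the other strand. They lie at chr10:84473044-84473343 (minus strand) for *Top2a*, chr1:199952544-199952843 (minus) for *Mki67*, chr1:186147408-186147707 (plus) for *Plk1* and chr20:19265043-19265342 (plus) for *Cdk1*.
Top2a: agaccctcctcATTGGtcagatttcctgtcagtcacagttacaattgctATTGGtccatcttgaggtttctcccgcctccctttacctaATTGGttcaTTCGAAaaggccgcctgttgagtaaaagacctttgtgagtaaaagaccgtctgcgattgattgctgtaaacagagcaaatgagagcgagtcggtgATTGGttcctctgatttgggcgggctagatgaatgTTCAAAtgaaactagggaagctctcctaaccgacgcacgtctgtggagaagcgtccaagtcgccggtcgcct
Mki67: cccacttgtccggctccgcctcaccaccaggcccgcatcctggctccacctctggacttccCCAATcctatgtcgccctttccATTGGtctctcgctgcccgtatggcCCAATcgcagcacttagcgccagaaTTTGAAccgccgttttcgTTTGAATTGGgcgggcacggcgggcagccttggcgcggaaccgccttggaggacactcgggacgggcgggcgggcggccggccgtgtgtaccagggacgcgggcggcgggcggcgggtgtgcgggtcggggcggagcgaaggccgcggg
Plk1: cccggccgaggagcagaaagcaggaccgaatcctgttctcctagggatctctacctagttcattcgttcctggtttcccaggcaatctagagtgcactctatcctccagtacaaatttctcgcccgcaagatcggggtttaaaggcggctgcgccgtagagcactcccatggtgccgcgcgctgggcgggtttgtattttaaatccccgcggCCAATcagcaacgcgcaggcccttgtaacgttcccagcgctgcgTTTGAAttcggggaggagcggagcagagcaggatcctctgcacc
Cdk1: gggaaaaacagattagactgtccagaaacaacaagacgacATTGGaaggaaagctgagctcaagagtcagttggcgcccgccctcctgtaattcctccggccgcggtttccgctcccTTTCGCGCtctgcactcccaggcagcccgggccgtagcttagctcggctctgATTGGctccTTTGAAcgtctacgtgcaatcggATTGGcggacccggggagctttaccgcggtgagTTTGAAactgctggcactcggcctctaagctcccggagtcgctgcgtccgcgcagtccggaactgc
All 4 hold CHR letters and CCAAT, and *Cdk1* holds E2F letters too. The 3 replication genes with the highest differences among those with E2F letters follow, *Tyms* at chr9:120776034-120776333 (minus), *Mcm3* at chr9:30733697-30733996 (minus) and *Gmnn* at chr17:40729584-40729883 (plus), marked in the same way.
Tyms: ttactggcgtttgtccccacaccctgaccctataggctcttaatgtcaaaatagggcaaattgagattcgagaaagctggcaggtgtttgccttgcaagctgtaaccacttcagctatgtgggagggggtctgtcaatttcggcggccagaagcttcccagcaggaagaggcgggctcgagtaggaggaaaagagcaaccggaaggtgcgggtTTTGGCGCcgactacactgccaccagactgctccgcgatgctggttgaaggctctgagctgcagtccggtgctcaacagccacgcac
Mcm3: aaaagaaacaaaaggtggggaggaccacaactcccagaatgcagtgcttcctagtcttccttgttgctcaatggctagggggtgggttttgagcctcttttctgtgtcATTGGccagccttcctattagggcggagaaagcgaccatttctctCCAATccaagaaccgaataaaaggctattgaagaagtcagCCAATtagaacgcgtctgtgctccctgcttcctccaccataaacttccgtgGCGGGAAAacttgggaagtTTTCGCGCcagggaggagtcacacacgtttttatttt
Gmnn: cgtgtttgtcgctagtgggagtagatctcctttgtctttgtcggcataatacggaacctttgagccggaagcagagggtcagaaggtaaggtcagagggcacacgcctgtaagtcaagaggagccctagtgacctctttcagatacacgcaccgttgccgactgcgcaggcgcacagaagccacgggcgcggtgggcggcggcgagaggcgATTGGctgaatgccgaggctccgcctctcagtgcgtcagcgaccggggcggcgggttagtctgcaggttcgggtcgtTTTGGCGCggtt
None of these 3 holds CHR letters.

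E2F letters, and less sharply CHR letters, differed in share between replication and mitotic genes, while CCAAT was common in both. E2F letters were found in 8 of 10 replication genes and in 1 of 16 mitotic genes, against 2.14% of the 33469 regions of that length in the table. CHR letters were found in 10 of 16 mitotic genes and 3 of 10 replication genes, against 19.7% of all regions. CCAAT was found in 13 of 16 and 7 of 10, against 37.5%. Unlike the listed genes, the 33469 regions were not limited to genes with 1 start site. Of the 13704 measured genes with 1 region, 421 held E2F letters, 2428 CHR letters and 5208 CCAAT. In replication genes the middle of the E2F matches lay at a median of 10 bases before the start site, and 10 of 15 matches were within 100 bases of it. In *Mcm2*, *Mcm5* and *Mcm6* a pair of these matches overlapped on opposite strands, and with each pair joined 9 of 12 stretches were within 100 bases, at a median of 6 bases before the start. For CHR letters in mitotic genes the median was 40 bases before the start, with 11 of 15 within 100 bases. A match of letters is a description of these windows and does not show that a factor binds there.

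**Figure D3:**
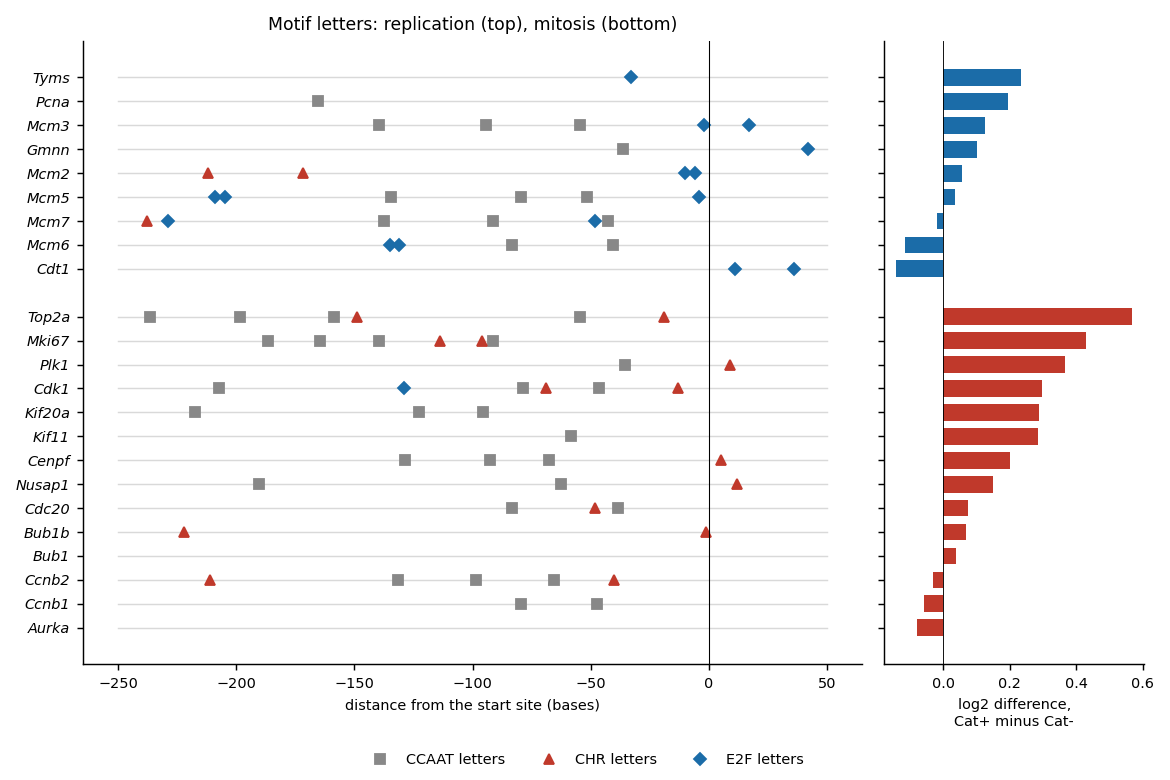
Matches to the CCAAT, CHR and E2F letters by distance from the start site in bases (left), and the log2 difference Cat+ minus Cat- of the same gene (right), for replication genes (top) and mitotic genes (bottom) that were measured and have a region in the table. E2F letters (diamonds) lie almost wholly among the replication genes and CHR letters (triangles) mostly among the mitotic genes.

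Set against the signals, measured genes of the list with CHR letters had a median difference of 0.15 (11 genes, 9 higher), those with E2F letters 0.08 (10 genes, 7 higher), and those with neither 0.01 (12 genes, 7 higher). Within the mitotic genes alone the median was 0.20 for 9 with CHR letters and 0.04 for 5 without. This split was not seen in a wider list of mitotic genes, where 38 genes with CHR letters had a median of 0.16 and 6 without had 0.15. Over all measured genes with 1 region, 2428 with CHR letters had a median of 0.01 and 421 with E2F letters 0.00, against -0.01 over all 13704 such genes.

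Beyond the 46 genes, 179 further genes of the cell cycle were listed, and 159 were measured. Of 50 further mitotic genes, 39 were higher in Cat+ and 11 lower, with a median of 0.15. Past a log2 difference of 0.32, 12 of the 50 were higher and 0 lower, against 3.36% and 5.39% of all genes. In Cat-, 4 of these 12 genes read below the array median, among them *Fam83d*, and no detection calls were available. *Depdc1*, a gene of mitotic progression, read 5.88 in Cat- and 6.57 in Cat+ on the log2 scale, a fold of 1.61, and was the only one past 1.5-fold, against 0.204% of all genes higher by that size. *Fam83d*, a spindle protein, had 5.49 and 6.06, a fold of 1.49. *Pbk*, a mitotic kinase, had 6.24 and 6.74, a fold of 1.41, and *Knl1*, the kinetochore scaffold, had 5.69 and 6.13, a fold of 1.36. The median was 0.13 over the 34 genes at or above the median of the Cat- array and 0.20 over the 16 below it. Some of the 34, such as *Knl1* at 5.69 in Cat-, lay just above that cut. The split therefore cannot show how far dim genes carry the median.

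Further genes of origins and forks were close to even as a group, and their difference from the mitotic genes was not tested. Of 41 measured, 23 were higher and 18 lower, with a median of 0.01. *Pold1*, the catalytic subunit of polymerase delta, read 6.23 in Cat- and 5.85 in Cat+ on the log2 scale, a fold of 0.767. *Gins3*, of the GINS helicase complex, was at 0.789. *Pola1*, the catalytic subunit of the polymerase alpha and primase complex, stood on the other side, with a log2 difference of 0.36 and a fold of 1.29, next to *Orc3*, of the origin recognition complex, at 1.23. Polymerase subunits therefore lay at both ends. Of 7 further genes of nucleotide supply, 2 were higher and 5 lower, among them *Dck*, a salvage kinase, at 1.24, *Ctps1*, which makes CTP, at 0.807, *Dut*, which breaks down dUTP, at 0.874 and *Dctpp1*, which breaks down dCTP, at 0.910.

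Ubiquitin ligases of the cycle were close to even as a group. Of 17 genes of the APC/C and SCF, 9 were higher and 8 lower, with a median of 0.00. *Anapc2*, the cullin-like core of the APC/C, read 7.11 in Cat- and 6.50 in Cat+ on the log2 scale, a fold of 0.654. *Skp2*, the SCF subunit that marks p27 for degradation, had 6.73 and 6.39, a fold of 0.795. *Cdc23*, another APC/C subunit, was at 0.873 and *Cul1*, the SCF scaffold, at 1.15. In the E2F and DREAM group, 9 of 19 genes were higher. *Foxm1*, a transcription factor of the mitotic genes, had 6.66 and 6.33, a log2 difference of -0.32, and *Lin52*, of the MuvB core, was at 0.802. The repressive E2F gene *E2f7* was at 1.27 and *Ccng2*, cyclin G2, which is linked to cell cycle arrest, at 1.36.

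The checkpoint and p53 group held the only one of these cell cycle genes past the study's 2-fold rule. *Ccng1*, cyclin G1, a target of p53, read 10.77 in Cat- and 9.66 in Cat+ on the log2 scale, a fold of 0.464; 0.308% of all genes were lower by that size. *Gadd45a*, a stress gene that p53 also induces, had 8.62 and 8.12, a fold of 0.709. *Mdm2*, the p53 ligase and a p53 target as well, had 7.06 and 7.27, a fold of 1.16, and *Cdkn1a* was near even as given above, so p53 targets lay on both sides. *Gadd45b* was at 0.881. The group as a whole had 7 of 13 genes higher and a median of 0.01. Of 12 genes listed under arrest, 6 were higher and 6 lower. *Gas6*, a ligand listed by its name, growth arrest-specific 6, was at 0.758 and *Cdkn2b*, p15, at 0.823. *Btg1*, an antiproliferative gene, was at 1.19 and its relative *Btg3* at 1.30.

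**Figure D4:**
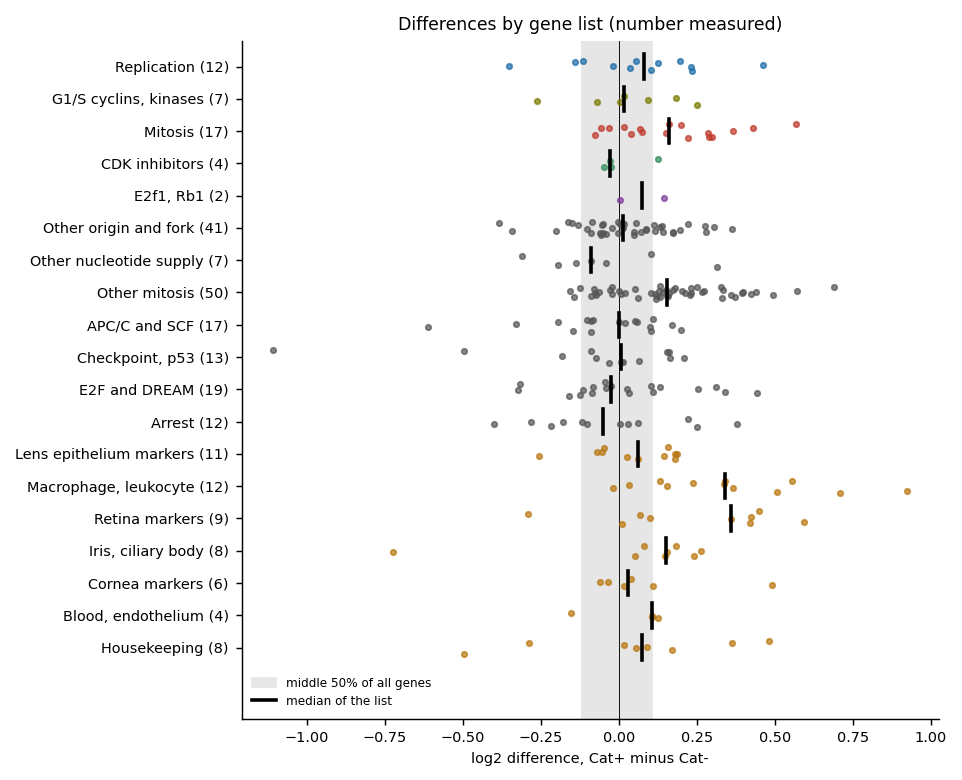
Log2 difference Cat+ minus Cat- for each gene (points) and the median (black bar) of the cell cycle groups, the wider cell cycle lists and the marker lists, with the number of genes measured; the grey band spans the middle 50% of all genes, from -0.12 to 0.11. Both mitotic lists have medians above that band, at 0.16 and 0.15; the lens fiber markers, with a median of -1.86, are left out of the plot because they lie beyond its axis.

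Markers of some other cell types were also higher in Cat+. Of 12 macrophage and leukocyte markers, 11 were higher in Cat+, with a median difference of 0.34, and their summed linear signal was 1406 in Cat- and 1911 in Cat+, a ratio of 1.36. Of 9 retina markers, 8 were higher, with a median of 0.36 and sums of 1884 and 2522, and of 8 iris and ciliary body markers 7 were higher, with a median of 0.15 and sums of 1828 and 1985. The 11 lens epithelium markers had a median of 0.06 and sums of 16894 and 17724, a ratio of 1.05, and the 11 fiber markers had sums of 20988 and 7907, a ratio of 0.377. The cornea markers, 6 genes with sums of 313 and 343, had a median of 0.03, and the 4 measured markers of blood and endothelium, with sums of 210 and 216, a median of 0.11. The summed linear signal of the 17 mitotic genes was 1650 and 1910, a ratio of 1.16. No marker is listed at 0, since the lowest log2 value on the arrays is 4.13, and the part of these cell types in the values of the cell division genes was not tested.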

How the data were processed

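LEC RNA of SCRs was labelled and hybridised to GeneChip Rat Gene 2.0 ST arrays, 1 array per group. The authors deposited log2 values for 29870 probe sets. Per the methods, each array was scaled on its own, to a control or to its mean intensity, and genes were selected in GeneSpring 14.9. How background was corrected and probes were combined is not given in the sources used here. The log2 scale was read from the range of the values. By GEO's platform annotation, 18511 probe sets carry 1 gene symbol, 575 more than 1 and 10784 none. All 42 measured genes of the list matched a RefSeq gene of GRCr8 by Entrez ID with the same symbol. The brightest probe set by the mean of both arrays stood for a gene. No further normalization or filter was applied, and with 1 array per group no test was run, so the number of arrays limits the precision.

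The genes, their roles and the other lists were chosen with earlier results of these data known. All genes of the list are named, and up to 4 genes of each wider list, those with the largest differences. The thresholds of 0.32 on the log2 scale and 1.5-fold are descriptive, and the motif letters were chosen after the values were seen. Alternatives were centring on the array median, quantile normalization, a loess curve with a span of 0.3, filters and a floor on low signal, other probe sets per gene and other thresholds. Start regions came from RefSeq (GRCr8). Software: statsmodels 0.14.6, pandas 2.3.3, NumPy 2.4.6, matplotlib 3.10.9 and Python 3.11.15.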

Additional observations from a re-analysis of the deposited data

How the results depend on the processing

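No paired analysis was possible because each group has 1 sample. The number of genes of the list past a log2 difference of 0.32 was 5, and under the alternatives of scaling, filter and probe set it was 4 to 6; at 1.5-fold and at 2-fold it was 0. The median difference of the 42 genes ran from 0.07 to 0.11 over 10 alternatives. That of the mitotic genes ran from 0.15 to 0.18, of the replication genes from 0.05 to 0.10, of the G1/S genes from 0.00 to 0.04 and of the inhibitors from -0.04 to -0.00. The filter and floor at the 20th percentile and shared probe sets left these medians as they were. Of the list, only *Ccnb2*, *Mcm3*, *Mcm4* and *Rrm2* have a second probe set of their own. The upper ends for the list, mitosis and replication came from the filter at the array median. It kept a gene if its brighter array passed, as *Gmnn* did through Cat+ only. With the cut on Cat- alone the medians were 0.12 over 37 genes, 0.18 over 16 and 0.09 over 10. Over the 10 alternatives the number of higher genes ran from 28 to 31. For the wider lists, whose alternatives were chosen after seeing the data, the further mitotic genes ran from 0.14 to 0.16, and the further origin and fork genes from -0.00 to 0.03, to the lower side of 0 when the arrays were centred on their medians. Centring on the array medians turned the sign of *Ccne1* and *E2f1*, quantile normalization that of *Ccnb2*, *Cdkn1b* and *E2f1*, and loess that of *E2f1*, all of them genes near even. *Mcm3* turned to -0.13 with its other probe set. *Rrm2* had a difference of 0.28 by the mean of its probe sets and 0.10 by the dimmer one, and *Ccnb2* had -0.26 by its dimmer one. The table gives no detection calls and signal over background was not measured, so whether genes near or below the array median were above background is not known.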
